A study of Mus musculus with 4 samples.

Results

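The 10 genes described here encode elastic fibre proteins (Eln, Fbn1, Fbln1, Fbln2 and Fbln5) and the lysyl oxidases that cross-link them (Lox, Loxl1, Loxl2, Loxl3 and Loxl4). They were chosen by name, out of 54115 annotated genes with a transcript in the files, and all 10 were among the 18758 genes that passed the low-count filter. RNA-seq was done on snap-frozen tumours of MC38, a mouse colon adenocarcinoma cell line that was injected into mice. The saline group (2 libraries) had 10 daily intraperitoneal injections of saline, and the vanoxerine group (2 libraries) had 10 daily intraperitoneal injections of vanoxerine, an inhibitor of the dopamine transporter, at 25 mg/kg. All 4 libraries come from tumours of this single line. The labels give no strain, sex or age of the mice and no site of injection, and do not say that each library is another animal. P-values here thus weigh the difference between groups against the spread between libraries of a group, as estimated with information from all genes. That spread could be technical.

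An elastic fibre is a core of cross-linked elastin, encoded by Eln, laid down on a scaffold of fibrillin microfibrils, of which Fbn1 encodes the main chain. Fibulins bind both parts and bring elastin to the microfibril and to the cell surface. Lysyl oxidases are secreted copper enzymes that oxidise lysine side chains of elastin and collagen, and the products then form the cross-links that give the fibre its recoil and the collagen fibril its strength. In solid tumours these genes are known from fibroblasts, smooth muscle and vessel walls, while several lysyl oxidases are also made by cancer cells and respond to hypoxia.

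The link between substrate and enzyme can be read in the coding DNA. The stretch of Eln shown here is its longest run of alanine and lysine codons that holds 2 or more lysine codons, the kind of sequence in which elastin's cross-links form, and its lysine codons (AAA or AAG) are in capitals. It lies in exon 24 of 37 of the transcript Eln-201, at chr5:134713996-134714040 on the reverse strand (GRCm38), and holds 2 of the 38 lysine codons among the 860 codons of the coding sequence.
Eln-201: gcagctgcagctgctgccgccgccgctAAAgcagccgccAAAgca
The 4 stretches of 42 bases that follow encode the copper-binding site of lysyl oxidase family members, with histidine codons (CAT or CAC) in capitals, since histidines hold the copper ion. They were found with a search pattern that requires the 4 histidine codons at set positions, so their matching positions are not a finding. Each stretch spans an exon junction: exons 3 and 4 in Loxl1, 10 and 11 in Loxl2 and Loxl3, and 11 and 12 in Loxl4.
Loxl1-201: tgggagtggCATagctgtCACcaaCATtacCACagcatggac
Loxl2-201: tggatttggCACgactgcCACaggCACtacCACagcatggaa
Loxl3-201: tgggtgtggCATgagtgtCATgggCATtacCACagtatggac
Loxl4-201: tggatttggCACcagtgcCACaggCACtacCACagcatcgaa
Loxl2 and Loxl4 were identical at 39 of 42 bases (92.9%), and Loxl1 and Loxl4, the least alike pair, at 28 of 42 (66.7%). The search pattern also fixed some of the other bases, so part of each identity was set by the search. Sequences are from the GENCODE M21 transcripts on GRCm38.

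Elastin, fibulin-1, fibulin-2, Lox and Loxl1 RNA fell in the vanoxerine tumours, while Fbn1, Fbln5, Loxl2, Loxl3 and Loxl4 did not pass the test. Eln was 6.46-fold lower, Fbln1 6.00-fold, Loxl1 2.58-fold, Fbln2 2.45-fold and Lox 1.84-fold lower. In all, 5 of 10 genes were called lower and 0 higher by edgeR's quasi-likelihood test at a Benjamini-Hochberg adjusted p under 0.05, where 36.9% of all genes tested were called, 15.9% lower and 21.0% higher. Of 10 genes, 4 (Eln, Fbln1, Fbln2 and Loxl1) were called with a log2 fold change under -1, against 3.26% of all genes. The median log2 fold change of the 10 genes was -0.65, and that of all genes tested -0.01. The 5 genes not called had adjusted p-values of 0.0574 to 0.602, which does not show that they were equal in both groups. As these are bulk tumours, fewer cells of a type and less RNA per cell cannot be told apart.

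The count of called genes moved with single libraries, the scaling and the unit. It was 7 with upper-quartile factors and 7 with library totals, where Fbn1 (adjusted p = 0.0119 and 0.0341) and Loxl3 (adjusted p = 0.014 and 0.0349) were also called. It was 8 without saline replicate 1, 6 without saline replicate 2, 3 without vanoxerine replicate 1 and 4 without vanoxerine replicate 2, and 3 on the log2(TPM + 1) scale, all of them lower in vanoxerine. Over all genes, 56.9% of calls were higher, against 39.0% with upper-quartile factors and 82.5% on the log2(TPM + 1) scale. Levels are given as CPM (reads scaled to library size with TMM factors) for comparisons between libraries, and as TPM (transcript abundance, which allows for transcript length) for comparisons between genes.

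**Figure D1:**
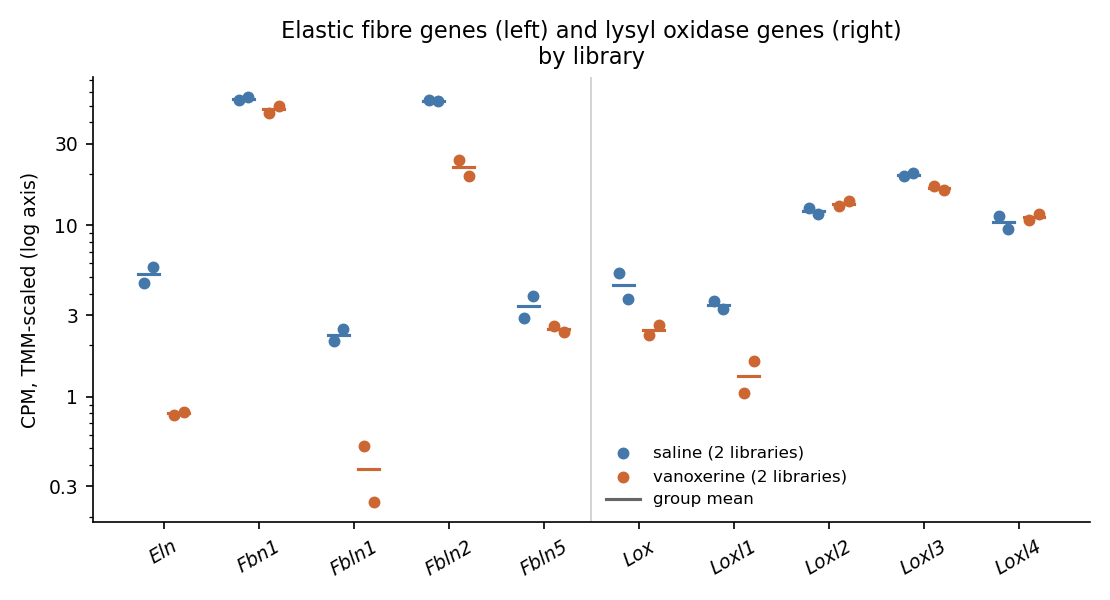
CPM of the 10 genes on a log axis, with 1 point for each of the 2 saline and 2 vanoxerine libraries and a line at each group mean. Eln lies at 4.63 and 5.73 CPM in saline and 0.78 and 0.82 CPM in vanoxerine, whereas the points of Loxl4 overlap.

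Eln (chromosome 5, 134702593 to 134747323, reverse strand, GRCm38), the gene of the elastic core, had 354 and 408 reads in saline and 54 and 54 in vanoxerine. Its level was 4.63 and 5.73 CPM in saline against 0.78 and 0.82 CPM in vanoxerine. Each vanoxerine library lay far below each saline library, and the vanoxerine pair was nearly equal. The log2 fold change was -2.69 ± 0.24 (SE; edgeR adjusted p = 0.00053), the 180th lowest of 18758 genes. It was called in all 14 alternatives, with log2 fold changes of -2.86 to -2.13 and of -0.87 on the log2(TPM + 1) scale, which compresses low values.

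Fbln1 (chromosome 15, 85205949 to 85286535, forward strand), whose product fibulin-1 sits in elastic fibres and basement membranes, was the least expressed of the 10 genes. It had 163 and 176 reads in saline and 36 and 16 in vanoxerine, or 2.13 and 2.47 CPM against 0.52 and 0.243 CPM. The groups did not overlap, but the vanoxerine libraries were unequal. The log2 fold change was -2.58 ± 0.45 (edgeR adjusted p = 0.00685). Without vanoxerine replicate 1 it was -3.22 and without vanoxerine replicate 2 it was -2.13, and it was called in all 14 alternatives.

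Fbln2 (chromosome 6, 91212455 to 91272540, forward strand), the gene of fibulin-2, which bridges elastin and microfibrils, was the most abundant of the 10 genes per length over all transcripts; over protein-coding transcripts it was so in saline but not in vanoxerine. Its level was 53.9 and 52.9 CPM in saline against 24.2 and 19.4 CPM in vanoxerine. The saline libraries were close together and the groups were well apart. It fell by 1.29 ± 0.11 on the log2 scale (edgeR adjusted p = 0.000469), and all 14 alternatives called it, with log2 fold changes of -1.45 to -1.11.

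Fbn1 (chromosome 2, 125300594 to 125507993, reverse strand), which encodes the microfibril chain fibrillin-1, stood at 53.6 and 56.0 CPM in saline and 45.2 and 49.9 CPM in vanoxerine. The groups did not overlap in CPM, but the difference was small, at -0.20 ± 0.069 (edgeR adjusted p = 0.0653), and in TPM they overlapped, at 4.38 and 4.42 against 4.38 and 4.73. Fbn1 was not called in the main test. It was called lower without saline replicate 1 (-0.24, adjusted p = 0.00317) and without saline replicate 2 (-0.16, adjusted p = 0.0366), and its sign turned on the log2(TPM + 1) scale, at 0.04 (adjusted p = 0.823). Fbln5 (chromosome 12, 101746565 to 101819055, reverse strand), the fibulin needed for elastin assembly, had 2.88 and 3.86 CPM in saline and 2.60 and 2.40 CPM in vanoxerine. Its saline libraries differed from each other more than the lower of them differed from vanoxerine, and the log2 fold change of -0.43 ± 0.24 did not pass (edgeR adjusted p = 0.22). Without saline replicate 1 it was -0.63 and was called (adjusted p = 0.0372).

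Among the enzymes, Loxl1 (chromosome 9, 58287738 to 58313186, reverse strand), the family member tied most closely to elastin, fell the most. It had 277 and 231 reads in saline and 73 and 106 in vanoxerine, or 3.63 and 3.24 against 1.05 and 1.61 CPM, with no overlap. The log2 fold change was -1.37 ± 0.29 (edgeR adjusted p = 0.0148). Without vanoxerine replicate 1 it was -1.08 and was no longer called (adjusted p = 0.105), and on the log2(TPM + 1) scale it was -0.41 (adjusted p = 0.0529).

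Lox (chromosome 18, 52516067 to 52529867, reverse strand), the founding enzyme of the family, had 5.27 and 3.73 CPM in saline and 2.28 and 2.63 CPM in vanoxerine. Both vanoxerine libraries were below both saline libraries, and the saline libraries were the more spread. The log2 fold change of -0.88 ± 0.25 passed narrowly (edgeR adjusted p = 0.0361). It was not called in 6 of 14 alternatives, namely without vanoxerine replicate 1 (-0.77, adjusted p = 0.206) or 2 (-0.97, adjusted p = 0.129), with the replicate number as a block (-0.86, adjusted p = 0.0517), with a transcript length offset (-0.80, adjusted p = 0.0851) and on the log2(TPM + 1) and log2(TPM + 0.1) scales (-0.24 and -0.49, adjusted p = 0.186 and 0.245).

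Loxl2, Loxl3 and Loxl4 form the branch of the family with scavenger receptor cysteine-rich domains in front of the catalytic domain. Loxl3 (chromosome 6, 83034173 to 83052562, forward strand) stood at 19.4 and 20.1 CPM in saline and 17.0 and 16 CPM in vanoxerine. The groups were apart in CPM by little, and the log2 fold change of -0.26 ± 0.085 did not pass (edgeR adjusted p = 0.0574), though it did without saline replicate 1 (-0.29, adjusted p = 0.0195). Loxl2 (chromosome 14, 69609068 to 69695834, forward strand), which also acts on basement membrane collagen, had 12.7 and 11.6 CPM in saline and 12.9 and 13.8 CPM in vanoxerine. Its difference of 0.13 ± 0.10 was not called in the main test (edgeR adjusted p = 0.378) or in any of 14 alternatives, where it ran from 0.00 with upper-quartile factors to 0.36. Loxl4 (chromosome 19, 42593982 to 42612813, reverse strand) had 11.3 and 9.53 CPM in saline and 10.8 and 11.6 CPM in vanoxerine, so that the groups overlapped. Its difference of 0.10 ± 0.13 was not called (edgeR adjusted p = 0.602) and lay between -0.03 with upper-quartile factors and 0.52 over the alternatives.

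**Figure D2:**
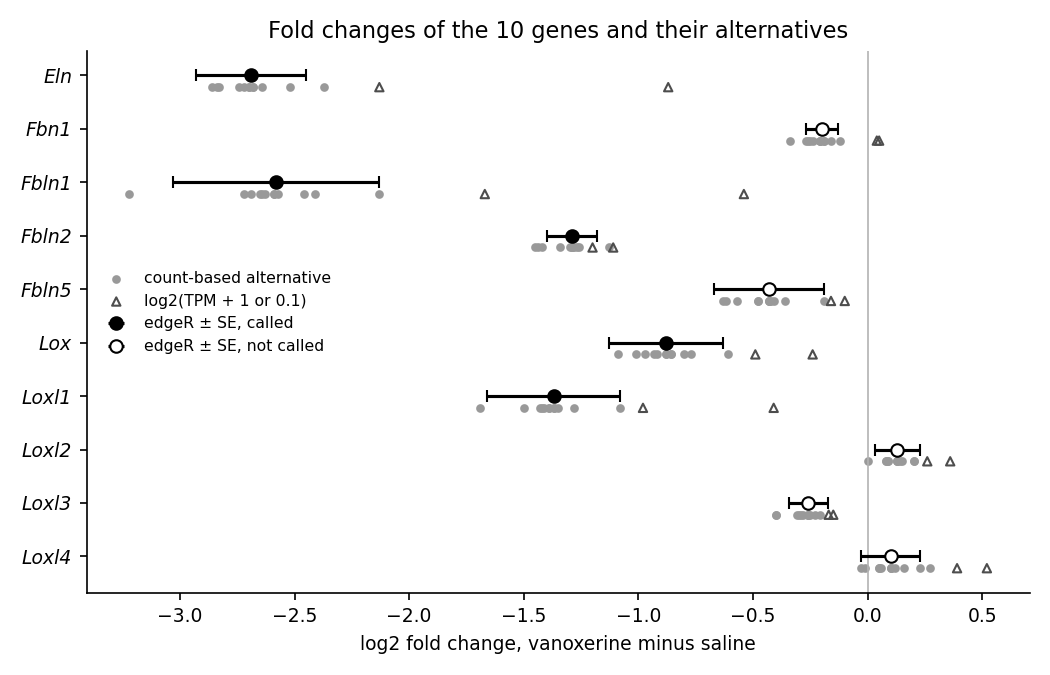
Log2 fold change of each gene, vanoxerine minus saline, with its SE (filled where the adjusted p was under 0.05), above the values of the 14 alternatives. Eln, Fbln1 and Fbln2 stay well below 0 in each count-based alternative, and the TPM scales (triangles) shrink low-expressed genes most.

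Groups that do not overlap were common in these data, at 70.7% of genes tested in CPM. In CPM, 8 of the 10 genes had both vanoxerine libraries below both saline libraries, against 34.9% of all genes tested, 1 (Loxl2) had both above, against 35.8%, and 1 (Loxl4) overlapped. In TPM, 5 of the 10 were lower without overlap, against 19.7% of genes tested, and these were the 5 genes called in CPM. Another 2 (Loxl2 and Loxl4) were higher in TPM, against 47.7%, and 3 overlapped.

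The authors' deposited table gives log2 fold changes for the same 10 genes. It lists Eln at -2.77 ± 0.35 (adjusted p = 7.36e-15), Fbln1 at -2.03 ± 0.70 (adjusted p = 0.000903), Fbln2 at -1.40 ± 0.17 (adjusted p = 1.62e-16) and Loxl1 at -1.13 ± 0.46 (adjusted p = 0.00523), and these 4 are the ones under 0.05 there. The authors' deposited table has Lox at -0.60 ± 0.35 with an adjusted p of 0.0596, just outside that limit. For the other 5 genes the authors' deposited table gives -0.34 for Loxl3, -0.26 for Fbln5, -0.17 for Fbn1, 0.13 for Loxl2 and 0.20 for Loxl4. The per-library columns of that table carry names that match none of these libraries, so the table may rest on other libraries in part.

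Per length, Fbln2 was the most abundant gene in saline, at 16.9 ± 0.816 TPM (mean ± SD, n = 2), followed by Loxl3 at 7.68 ± 0.421, Fbn1 at 4.4 ± 0.0302, Loxl4 at 2.57 ± 0.816 and Loxl2 at 1.84 ± 0.154 TPM. The other five stood close to 1 TPM in saline: Fbln5 at 1.23, Eln at 1.17, Lox at 0.922, Loxl1 at 0.816 and Fbln1 at 0.674. Neighbours whose libraries overlapped in saline were Fbln5 and Eln, and Lox and Loxl1. In vanoxerine the order of Fbln2 (7.35 ± 1.37), Loxl3 (6.88 ± 1.35), Fbn1, Loxl4, Loxl2 and Fbln5 was kept, but Fbln2 and Loxl3 now overlapped. Over protein-coding transcripts Fbln2 stood at 6.47 and 6.91 TPM in saline, above the other genes, and at 3.36 and 2.78 TPM in vanoxerine, below Fbn1 at 4.32 and 4.73 TPM and Loxl3 at 3.64 and 3.53 TPM. Over all transcripts Eln dropped below Lox and Loxl1 to 0.19 ± 0.00405 TPM and overlapped with Fbln1 at 0.15 ± 0.0844 TPM.

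The make-up of lysyl oxidase RNA differed between the groups. The summed TPM of the 5 enzymes was 15 and 12.7 in saline against 14.3 and 13.5 in vanoxerine, so the totals overlapped. Lox made up 6.98% and 6.29% of it in saline against 4.01% and 4.97% in vanoxerine, and Loxl1 5.90% and 5.90% against 2.07% and 3.24%. For both genes the vanoxerine shares lay below the saline shares. Loxl2 went the other way, with 13.0% and 13.7% in saline against 16.2% and 18.2% in vanoxerine, and Loxl4 held 21.0% and 15.8% against 22.9% and 29.8%. Loxl3 had the highest share in each library over all transcripts, at 53.2% and 58.4% in saline and 54.8% and 43.7% in vanoxerine, with overlap. Over protein-coding transcripts this did not hold in vanoxerine replicate 2, where Loxl3 had 31.7% and Loxl4 36.2%. The shares are a description: an exact two-sided permutation test of 2 libraries against 2 cannot go below p = 0.333, and no other test was run on them.

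**Figure D3:**
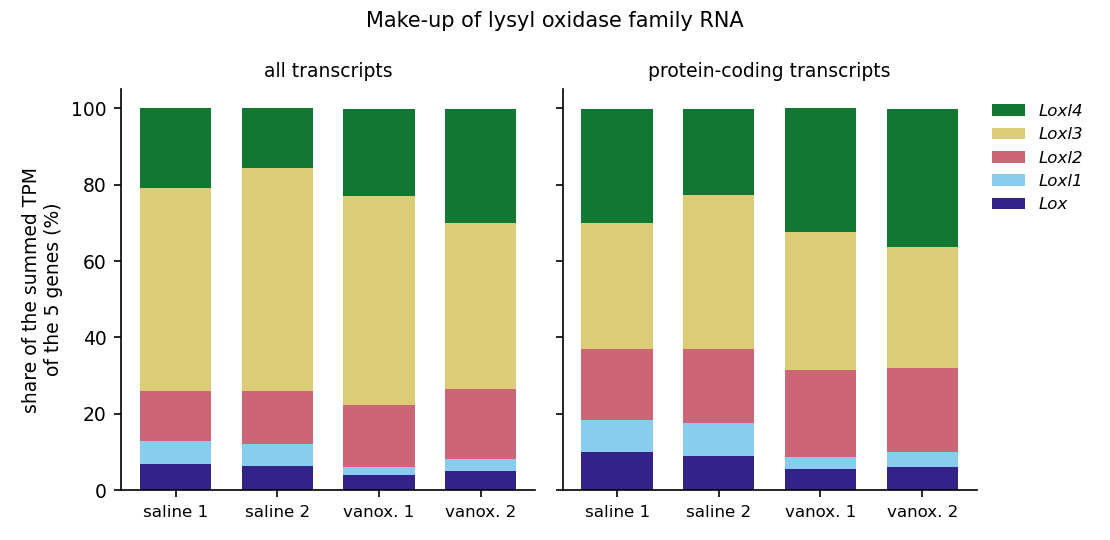
Share of each gene in the summed TPM of the 5 lysyl oxidase genes, 1 bar for each library, over all transcripts (left) and protein-coding transcripts (right). The bottom segments, Lox and Loxl1, are thinner in the vanoxerine libraries in both panels: over protein-coding transcripts Loxl1 holds 8.41% and 8.46% in saline and 2.93% and 3.94% in vanoxerine.

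Salmon splits reads among annotated transcripts by estimate, and for several of these genes the split bears on what was counted. For Fbln2, the retained-intron transcript Fbln2-206 took 61.2% and 56.0% of the gene's TPM in saline against 59.7% and 55.4% in vanoxerine, and the coding transcript Fbln2-202 fell from 5.46 and 5.70 TPM to 3.18 and 2.78 TPM. The retained-intron shares of the groups overlapped, and the coding transcript was lower in vanoxerine as well. For Loxl3, the short retained-intron transcript Loxl3-204 held 50.7% and 47.1% of TPM in saline and 38.7% and 29.5% in vanoxerine, but only 4.31% to 9.57% of reads, because it is short. The coding transcript Loxl3-201 stood at 3.49 and 3.56 TPM in saline and 3.64 and 3.53 TPM in vanoxerine, with overlap. Counted over protein-coding transcripts alone, an alternative chosen after seeing these shares, 6 of the 10 genes were called, all lower, the added one being Fbn1 (-0.26, adjusted p = 0.047).

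For Eln, the coding transcript Eln-201 held 53.0% and 83.5% of TPM in saline and all of it in vanoxerine. The rest in saline went to Eln-203, a transcript annotated for nonsense-mediated decay, at 0.535 and 0.198 TPM. On coding transcripts alone Eln stood at 0.602 and 1.00 TPM in saline and 0.187 and 0.193 TPM in vanoxerine, still without overlap. Fbln1 has 2 coding transcripts, and Fbln1-202 took 57.6% and 61.3% of its TPM in saline and 85.8% and 73.1% in vanoxerine, where 36 and 16 reads support the split. For Lox the split cannot be read, since Lox-201 took 100% in saline replicate 1 and 41.8% in saline replicate 2.

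Some reads may belong to neighbours, since no source used here says whether Salmon was run with strand. Loxl3 overlaps 1297 bases of the opposite-strand gene Htra2, which had 5609 to 8569 reads per library, more than Loxl3 itself (1053 to 1486). The other overlapping genes held few reads: Gm27177, which lies opposite Loxl2, had 0 to 36, Gm9913, opposite Fbn1, had 3 to 31, and AC161119.1, opposite Lox, had 7 to 31. Gm30003, opposite Eln, had 0 reads in each library.

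Other genes listed here as elastic fibre and microfibril partners, some only loosely tied to the fibre, moved in both directions, with more lower than higher. Of 20 such partner genes, 16 were tested, and 8 were called lower, 2 higher and 6 neither (median log2 fold change -0.52). Without vanoxerine replicate 2 the count called was 6. Efemp2, which encodes fibulin-4, the fibulin that brings Lox to elastin, fell from 100 and 105.6 to 57.3 and 59.5 CPM (-0.82 ± 0.054, edgeR adjusted p = 0.000181). Mfap5, a microfibril-associated glycoprotein gene, fell from 12.2 and 13.9 to 5.50 and 6.53 CPM (-1.11 ± 0.14, adjusted p = 0.00207). Mmrn2, an endothelial matrix gene of the EMILIN family, fell from 5.27 and 5.73 to 1.99 and 1.93 CPM (-1.49 ± 0.19, adjusted p = 0.00196). Emilin2, another EMILIN family gene, rose from 119.4 and 126.2 to 216.3 and 222.6 CPM (0.84 ± 0.050, adjusted p = 0.000127).

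Of genes listed here for lysyl oxidase maturation and copper supply, 12 of 14 tested were called, 7 lower and 5 higher (median -0.40). Some of them, such as Plod1, Plod2 and Plod3, are only loosely tied to these enzymes. Pcolce, an enhancer of the procollagen C-proteinase, fell from 468 and 501 to 273 and 277 CPM (-0.82 ± 0.049, edgeR adjusted p = 0.000128). Fn1, the fibronectin gene, fell as well, from 1017 and 1049 to 670.3 and 672 CPM (-0.62 ± 0.037, adjusted p = 0.000128). Thbs1, the thrombospondin-1 gene, rose from 723 and 716 to 1371 and 1411 CPM (0.95 ± 0.036, adjusted p = 3.04e-05), and so did the proprotein convertase gene Furin, from 96.3 and 99.2 to 165 and 170 CPM (0.78 ± 0.047, adjusted p = 0.000137).

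Collagens that lysyl oxidases cross-link were lower in 7 of 7 genes (median -0.69), although 3 of them were called on the log2(TPM + 1) scale. The changes were -1.09 ± 0.048 for Col3a1, -0.69 ± 0.052 for Col1a1, -0.62 ± 0.055 for Col4a1 and -0.85 ± 0.076 for Col1a2, and Col3a1 was not called on that scale (-0.84, adjusted p = 0.0612). Proteases linked to elastin breakdown went the other way in most cases, with 8 of 10 tested genes higher and 2 lower (median 1.20). The cathepsin genes Ctsb (1.34 ± 0.030), Ctss (1.66 ± 0.044) and Ctsk (2.52 ± 0.069) rose, and the gelatinase gene Mmp2 fell (-1.49 ± 0.090). Ctsk, which encodes a strong elastase and collagenase, went from 10.4 and 10.0 to 57.8 and 59.5 CPM (edgeR adjusted p = 1.13e-05). In the same libraries 10 of 10 macrophage markers rose, and summed to 703 and 746 CPM in saline against 3816 and 3835 CPM in vanoxerine (median log2 fold change 2.49); their part in the protease result was not tested.

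**Figure D4:**
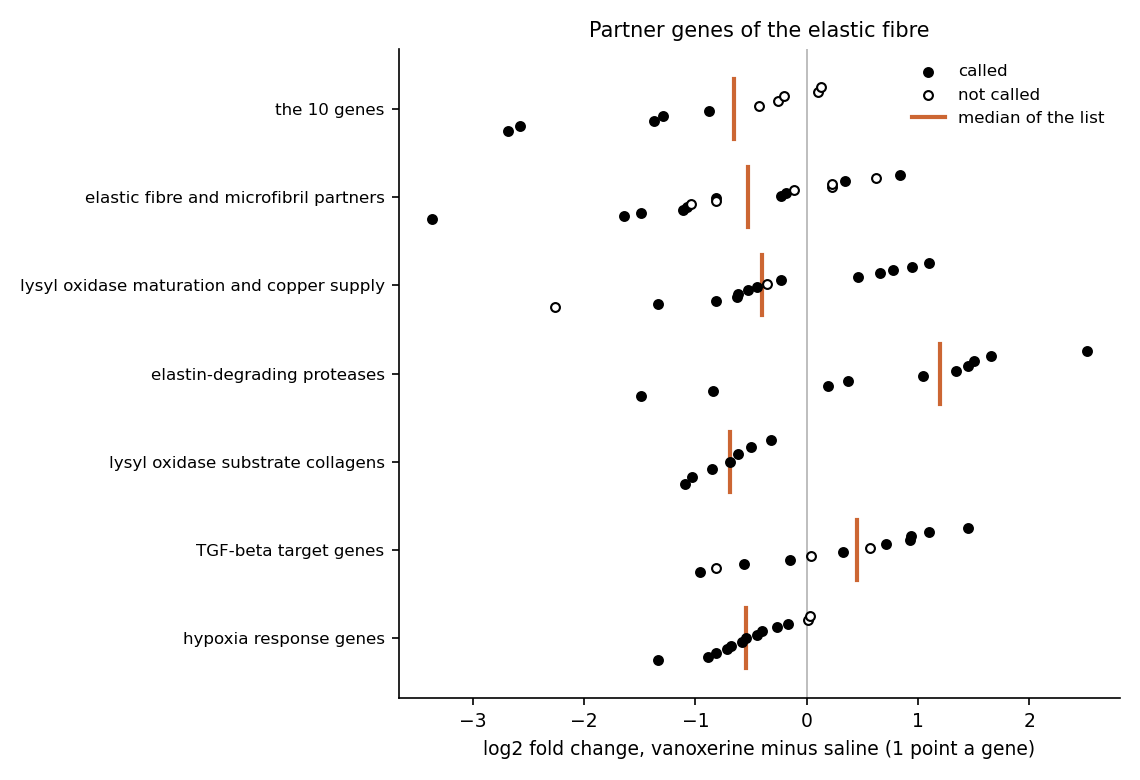
Log2 fold changes of the 10 genes and of 6 lists of related genes, 1 point a gene, filled where called, with a bar at the median of the tested genes of each list. The substrate collagens and hypoxia genes lie mostly below 0 and the proteases mostly above 0, with medians of -0.69, -0.55 and 1.20.

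Lox, Loxl2 and Loxl4 are known hypoxia targets, and 13 hypoxia response genes were set beside them. Of these, 11 fell and 0 rose (median -0.55), and on the log2(TPM + 1) scale 6 fell. Slc2a1, the glucose transporter gene, fell by 0.72 ± 0.041 on the log2 scale, Ankrd37 by 1.34 ± 0.081, the collagen prolyl hydroxylase gene P4ha2 by 0.82 ± 0.049 and Ndrg1 by 0.68 ± 0.042, with edgeR adjusted p-values of 0.000113 to 0.000145. Over the same libraries Lox was at -0.88, Loxl2 at 0.13 and Loxl4 at 0.10.

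RefSeq promoter windows on GRCm38.p6 ran from 250 bases before to 50 after a RefSeq start site. That site can differ from the gene start given above: the windows of Fbln2 and Fbn1 lie inside the gene bounds printed here. They were examined for 5 of the 10 genes (Fbn1, Fbln1, Fbln2, Fbln5 and Loxl4). No window was found for Eln, Loxl1, Loxl2 and Loxl3. Lox was left out of this comparison, so whether its window holds the core was not examined. The first window of Fbln1 and the window of Fbln2 are shown because both genes fell. Capitals mark the core of the hypoxia response element, ACGTG or GCGTG, on either strand.
Fbln1, chr15:85205699-85205998, forward strand: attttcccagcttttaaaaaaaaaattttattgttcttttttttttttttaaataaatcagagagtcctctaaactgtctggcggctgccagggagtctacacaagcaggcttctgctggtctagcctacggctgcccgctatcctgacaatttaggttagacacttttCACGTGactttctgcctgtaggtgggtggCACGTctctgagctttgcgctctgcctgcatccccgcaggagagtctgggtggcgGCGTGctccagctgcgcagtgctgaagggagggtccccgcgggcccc
Fbln2, chr6:91212514-91212813, forward strand: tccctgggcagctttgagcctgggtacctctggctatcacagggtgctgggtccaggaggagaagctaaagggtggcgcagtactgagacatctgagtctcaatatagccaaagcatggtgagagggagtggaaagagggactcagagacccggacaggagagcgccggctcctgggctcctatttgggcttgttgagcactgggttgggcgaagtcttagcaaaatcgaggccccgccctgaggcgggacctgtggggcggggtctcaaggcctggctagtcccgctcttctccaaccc
The first Fbln1 window held ACGTG 3 times, of which 2 are the overlapping matches of 1 palindrome, CACGTG, and GCGTG 1 time. The second Fbln1 window, which overlaps the first, held the same counts of both. The Fbln2 window held neither, and nor did that of Fbn1. The first window of Fbln5 held GCGTG 4 times and the window of Loxl4 1 time, whereas the second window of Fbln5 held neither ACGTG nor GCGTG. Among 32851 promoter windows of this length, 43.8% held ACGTG or GCGTG, 7.15% held CACGTG, and 35.7% held the GC box GGGCGG. The GC box occurred 2 times in the Fbln2 window, 1 time in that of Fbn1 and 3 times in that of Loxl4. It also occurred 2 times in the first window of Fbln5 and 2 times in the second of Fbln1, so it did not set Fbln2 apart. The core was present in both windows of Fbln1, which fell, and in the first window of Fbln5 and that of Loxl4, genes that were not called. It was absent from the second window of Fbln5 and from the windows of Fbln2, which fell, and of Fbn1, which was not called. Whether the core bears on any of these changes was not tested.

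Among markers of cells known to make elastic fibres, more were called lower than higher in the same libraries. Fibroblast markers were lower in 9 of 12 genes and higher in 2, and summed to 749 and 784 CPM in saline against 595 and 600.5 CPM in vanoxerine, with no marker at 0. The changes were -0.92 ± 0.045 for Col6a1, -0.93 ± 0.050 for Dcn, -1.0 ± 0.054 for Col6a2 and -3.29 ± 0.21 for Dpt. The 2 that rose were Thy1 (0.42 ± 0.059, edgeR adjusted p = 0.00285) and Pdpn (1.06 ± 0.068, adjusted p = 0.000167), and Thy1 alone gave 204.8 and 226.3 CPM of the saline sums and 286.3 and 291.7 CPM of the vanoxerine sums. Smooth muscle and pericyte markers were lower in 4 of 9 tested genes and higher in 0, with sums of 48.8 and 55.0 against 28.0 and 28.2 CPM. Their defining gene Myh11 was near 0 in each library (0.0578 to 0.351 CPM). Endothelial markers were lower in 7 of 10 and higher in 1, Pecam1, with sums of 161 and 156 against 144 and 150 CPM. Pecam1 alone gave 52.8 and 54.3 CPM of the saline sums and 98.0 and 98.3 CPM of the vanoxerine sums, so the sums hide the falls of the others. The part of these cells in the falls of Eln, Fbln1, Fbln2, Lox and Loxl1 was not tested.

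The levels were also set against fibrillar collagen RNA, as TPM per 1000 TPM of Col1a1, Col1a2 and Col3a1 together. The collagen sum was 103.5 and 76.8 TPM in saline against 48.6 and 55.6 TPM in vanoxerine. Eln stood at 11 and 15.6 per 1000 in saline against 3.85 and 3.47 in vanoxerine, and over protein-coding transcripts at 6.56 and 13.1 against 3.86 and 4.17. Fbln1 stood at 6.09 and 9.34 against 4.31 and 1.62, so both were lower relative to collagen, without overlap. Loxl1 was lower too, at 8.55 and 9.73 against 6.09 and 7.89. Fbln2, at 169 and 212.5 against 171 and 115, overlapped, as did Fbln5, at 10.3 and 18.2 against 24.0 and 18.1. Over protein-coding transcripts neither overlapped: Fbln2 was lower, at 70.4 and 89.9 against 69.2 and 60.0, and Fbln5 higher, at 11.7 and 18.2 against 19.6 and 20.4. Lox was higher by little, at 10.1 and 10.4 against 11.8 and 12.1, without overlap. Loxl2 (18.8 and 22.6 against 47.7 and 44.3), Loxl4 (30.4 and 26.0 against 67.2 and 72.6), Fbn1 (42.3 and 57.6 against 90.1 and 85.1) and Loxl3 (77.1 and 96.2 against 161 and 106) were also higher relative to collagen. These ratios are descriptions with no test.

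**Figure D5:**
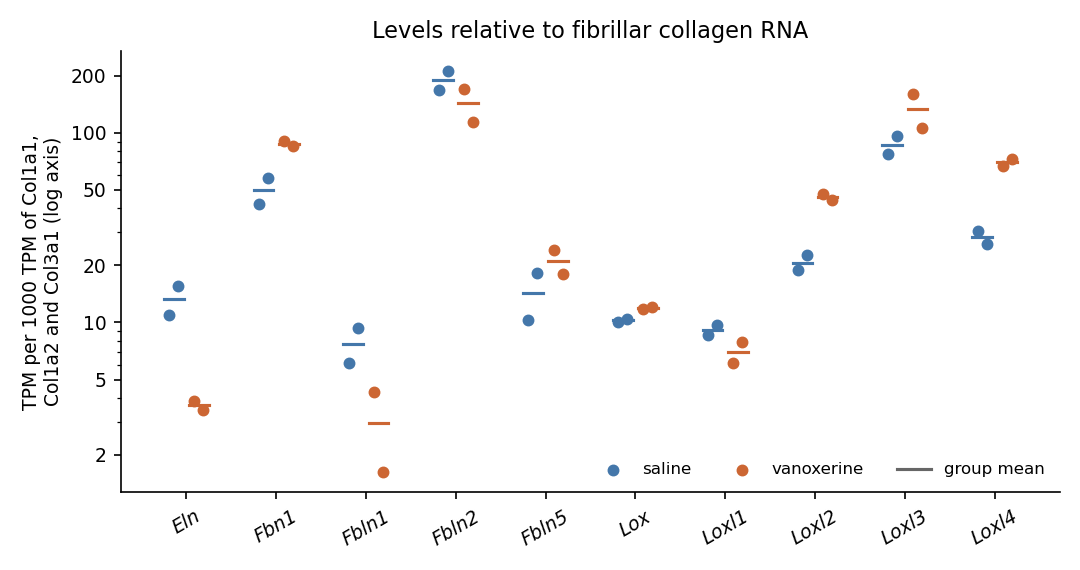
TPM of each gene per 1000 TPM of Col1a1, Col1a2 and Col3a1 in each library, on a log axis, with a line at each group mean. Eln and Fbln1 lie lower in vanoxerine and Fbn1, Loxl2 and Loxl4 higher, while Fbln2 and Fbln5 overlap over all transcripts.

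The genes most like Eln over the 4 libraries, by the distance between centred log2 CPM values among 11617 genes, were Hmga1b, Hspb1, Prg4, Htra3 and Igfbp5 (distances of 0.321 to 0.589). Hmga1b is a near-identical copy of Hmga1, so its reads are uncertain. Those most like Lox were Capn6, Ttll7, Slc4a3, Mindy4 and Vax2 (0.0672 to 0.147). With 2 groups of 2 libraries, likeness is set mainly by the difference between groups.

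Across the series, the libraries held 67289273 to 75748162 estimated reads, of which mitochondrial genes took 2.59% to 3.49%. The labelled tissue is colon adenocarcinoma, but its defining markers were low: Cdx2 had no read, Krt20, Cdx1 and Cldn7 did not pass the filter, and 10 colon epithelium markers summed to 17.0 and 19.9 CPM in saline libraries and 35.9 and 37.3 CPM in vanoxerine libraries. Cdh1 (1.09 ± 0.11, edgeR adjusted p = 0.000992), Epcam (1.03 ± 0.23, adjusted p = 0.0174) and Krt19 (1.69 ± 0.48, adjusted p = 0.0379) rose.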

How the data were processed

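The 4 RNA-seq libraries of MC38 tumours (2 saline, 2 vanoxerine) were analysed. Per the labels' protocols they were made from total RNA with a TruSeq RNA kit, and per the submitters' processing notes fastp, Salmon 1.3.0, DESeq2 and the build GRCm38 were used. Settings and annotation release are not stated there. The authors' deposited files give, for 140992 transcripts a library, an estimated count, a TPM and lengths from Salmon. The authors' deposited table gives a base mean (a normalized signal), a log2 fold change and p-values for each gene, and its 4 per-library columns match no sample here and were not used.

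Transcripts were assigned to genes with GENCODE M21 (139791 of 140992), and estimated counts were summed per gene and rounded. Vanoxerine was tested against saline with edgeR 4.0.16 (R 4.3.3; TMM factors, minimum count 10, minimum total 15, no block), with the SE taken from the F statistic. Scripts were tested on simulated data. TPM was also tested with limma 3.58.1, with a pseudocount of 1 or 0.1, which understates changes of low genes. DESeq2 1.42.0, other scalings, no filter, a length offset, a block and leaving out each library were further alternatives. Deviations of the libraries numbered replicate 1 in saline and in vanoxerine were not correlated (r = -0.0129 over 9871 genes). This cannot show whether libraries were paired by number. The genes and lists were chosen with earlier results of these data known. Named genes are the 10, up to 4 of each other list with the smallest p, and the 5 most like Eln and Lox. Ero1a was matched under its annotation symbol, Ero1l.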

Additional observations from a re-analysis of the deposited data

How the results depend on the processing

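The direction and call of Eln, Fbln1 and Fbln2 held in all 14 alternatives, and Lox lost its call in 6 and Loxl1 in 3. All genes called numbered 6916, and 4302 with the length offset, 7420 with upper-quartile factors and 3107 to 9708 without 1 library. Of these calls 56.9% were higher in vanoxerine, against 39.0% with upper-quartile factors and 82.5% on the log2(TPM + 1) scale, as the median log2 fold change of all genes moved from -0.01 to -0.14 and 0.13. The genes called among the 10 numbered 3 on the log2(TPM + 1) and 3 on the log2(TPM + 0.1) scale, and 3 to 8 without 1 library. Partner genes called numbered 6 to 13 without 1 library. On both TPM scales 3 substrate collagens and 6 hypoxia genes were called, and 5 TGF-beta genes on the log2(TPM + 0.1) scale and 5 with the length offset. The cause was not tested, but leaving out a library leaves fewer samples, with the lone library of a group assumed to vary like the other group.

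With the replicate number as a block, 6391 genes and 4 of the 10 were called. The labels do not say that the numbers pair the libraries. Depth limits Fbln1 most, with 16 reads in 1 library and an SE of 0.45.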

Other observations

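TGF-beta is known to induce Eln, Fbn1 and Lox, and 12 genes of TGF-beta ligands and targets were examined beside them. Of these, 6 rose, 3 fell and 3 did not pass the test (median log2 fold change 0.45). With the length offset 3 rose and 2 fell. Tgfbi, a matrix gene induced by TGF-beta, rose from 239 and 253 to 669 and 672 CPM (1.45 ± 0.046, edgeR adjusted p = 1.73e-05), and the ligand gene Tgfb1 by 0.93 ± 0.046, although with the length offset Tgfb1 was at 0.42 and was not called (adjusted p = 0.115). Skil, a feedback inhibitor of the pathway, rose by 0.94 ± 0.066 and Bhlhe40 fell by 0.56 ± 0.040.

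Of tissues that can surround an injected tumour, fat and skin left little marker RNA, and skeletal muscle left more. Summed over 6 adipocyte markers, CPM came to 1.62 and 1.91 for saline against 0.303 and 0.911 for vanoxerine, with Lep at 0 reads. For 7 keratinocyte markers it was 1.66 and 2.13 against 1.17 and 1.08, with Krt5, Lor and Dsg1a at 0 reads. For 8 skeletal muscle markers it was 51.6 and 50.2 against 37.2 and 33.6, and of the 7 tested, 3 fell and 1 rose. Whether these tissues bear on the elastic fibre genes was not tested.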
